A study of Oryza sativa Japonica Group with 31 samples.

Results

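The values described here are the transcript levels of the 9 rice loci listed as the phenylalanine ammonia-lyase (PAL) family, in leaves with and without cold. The members were chosen by their locus identifiers and not by their measured values, though earlier results of these data were known. All 9 were found among the 55801 loci of the expression table. They comprise a group of 4 on chromosome 2 (LOC_Os02g41630, LOC_Os02g41650, LOC_Os02g41670 and LOC_Os02g41680), a pair on chromosome 4 (LOC_Os04g43760 and LOC_Os04g43800) and single loci on chromosomes 5, 11 and 12 (LOC_Os05g35290, LOC_Os11g48110 and LOC_Os12g33610). Chromosomes are read from the identifiers. The table pairs no identifier with a gene name and the reference gene table used here holds none of the 9, so family membership is taken as listed and was not checked against sequence.

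PAL removes ammonia from phenylalanine to give cinnamic acid, the entry step of phenylpropanoid metabolism. Lignin, flavonoids, anthocyanins and many soluble phenolic compounds derive from it, and in grasses some of these enzymes also accept tyrosine. Plants carry PAL as a small gene family, and PAL transcripts are widely used as a readout of responses to wounding, pathogens and abiotic stress.

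The plants were seedlings of Nipponbare, a japonica cultivar, raised in liquid culture under cycles of 12 h of light and 12 h of dark at mean temperatures of 28 °C and 22 °C. In the cold group, seedlings were moved to 4 °C on day 13 and sampled 24 h later. The control group stayed under the growth conditions. The series has 31 libraries, of which 4 are RNA-seq libraries of leaf, 2 from cold and 2 from control seedlings, called biological replicates in the labels. The expression table gives 1 FPKM value per locus and treatment (fragments scaled by the length of the locus and by all mapped fragments, a level per length), so no value below has a replicate error, no test could be made and no p-value is given. The number of reads behind each column is unknown.

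The family did not move as a block. Outside the chromosome 2 group, each of the 4 loci above 1 FPKM had a lower level in cold, by 2.01-fold to 3.61-fold. Within the group, the most abundant locus was 1.61-fold lower while its 3 companions were higher, by 1.44-fold to 7.92-fold. Over all loci whose mean reached 1 FPKM, 61.2% were lower in cold and 38.8% higher, and 26% of those above 0 in both columns were at least 2-fold lower as a plain ratio. Lower levels were thus common in the table. On the log2(FPKM + 1) scale, 3 of the 4 loci outside chromosome 2 were at least 2-fold lower as deposited, and 1 under median-of-ratios scaling. Of all loci whose mean reached 1 FPKM, 19.2% were that much lower on this scale as deposited, and 11% under median-of-ratios scaling. In bulk leaf, a change in the number of expressing cells and a change in RNA per cell cannot be told apart.

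The chromosome 2 group held most of the family's transcripts. LOC_Os02g41630 was the most abundant member, with 929.8 FPKM in cold and 1498 FPKM in control. It was the 38th most abundant of all 55801 loci in cold and the 26th in control. Its cold level was thus lower, yet it was still above every other member in both treatments.

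LOC_Os02g41650 had 426 FPKM in cold and 142 FPKM in control, a ratio of 3.00. It ranked 122nd of all loci in cold and 536th in control, and it was the second most abundant member in cold and the third in control. Among the higher members it carried by far the largest amount of transcript.

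LOC_Os02g41670 was weakly expressed, with 7.50 FPKM in cold and 0.947 FPKM in control. The ratio of 7.92 was the highest of the family, but it rests on a control value below 1 FPKM whose counting error is unknown. LOC_Os02g41680, next to it in the order of identifiers, had 92.9 FPKM in cold and 64.4 FPKM in control, a ratio of 1.44. Reads shared by similar members of a tandem group can be counted at either copy, and the handling of such reads was not given in the sources used here.

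Of the members elsewhere, LOC_Os12g33610 had the largest ratio between the treatments. It had 61.2 FPKM in cold and 221 FPKM in control, 3.61-fold lower. It was the second most abundant member in control and the fifth in cold.

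The chromosome 4 pair lay on the same side. LOC_Os04g43760 had 66.6 FPKM in cold and 139.8 FPKM in control, 2.10-fold lower, and LOC_Os04g43800 had 4.90 FPKM in cold and 13.5 FPKM in control, 2.76-fold lower. The first was 13.6 times as abundant as the second in cold and 10.3 times in control, so their order was the same in both treatments.

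LOC_Os05g35290 had 20.2 FPKM in cold and 40.6 FPKM in control, 2.01-fold lower. LOC_Os11g48110 was listed at 0 in cold and at 0.0579 FPKM in control. No fold is given for this last locus, and it is the only member left out by the floor used below.

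**Figure D1:**
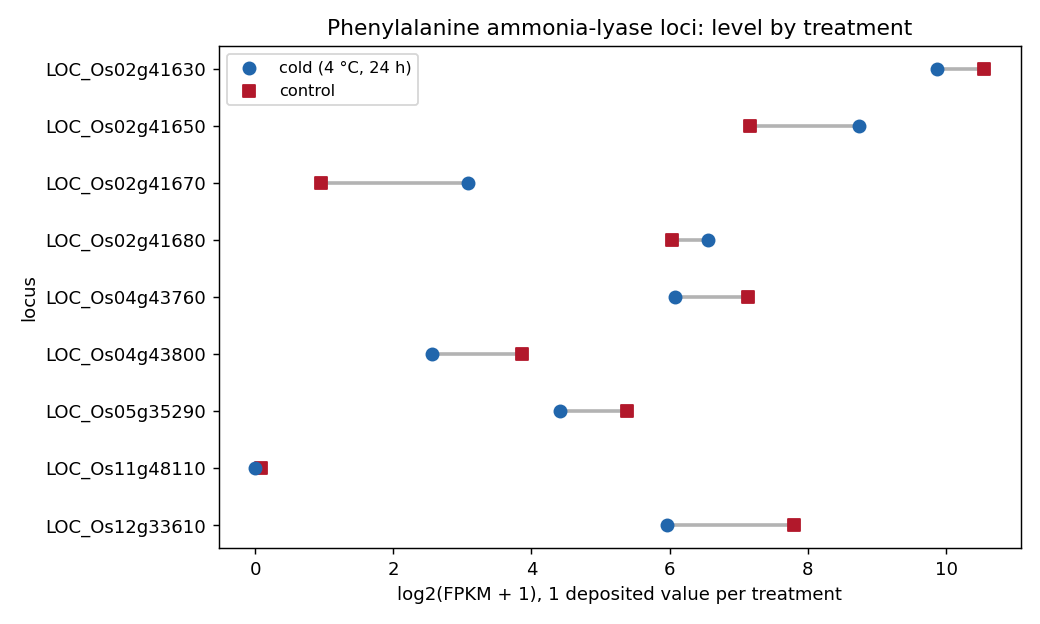
Level of each of the 9 loci as log2(FPKM + 1), with cold as circles and control as squares, 1 deposited value per treatment and no error bars. LOC_Os02g41650, LOC_Os02g41670 and LOC_Os02g41680 have the circle to the right of the square, while LOC_Os02g41630 and the 4 expressed loci outside chromosome 2 have it to the left.

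Fold changes were also taken as differences of log2(FPKM + 1), cold minus control, which understates the change of weakly expressed loci, and set beside those of the 20876 loci whose mean over the columns reached 1 FPKM. On this scale 8 members were kept, and 2 of them were at least 2-fold higher in cold, LOC_Os02g41670 at 2.13 (1.07 with a pseudocount of 5) and LOC_Os02g41650 at 1.58, where 12.5% of all kept loci were that much higher. At least 2-fold lower were 3 members, LOC_Os12g33610 at −1.84, LOC_Os04g43800 at −1.30 and LOC_Os04g43760 at −1.06, where 19.2% of all kept loci were that much lower. The other 3 lay within 2-fold, with LOC_Os02g41680 at 0.52, LOC_Os02g41630 at −0.69 and LOC_Os05g35290 at −0.97. The last of these is past 2-fold as a plain ratio and just short of it with the pseudocount. With counts this small, the shares of members do not set the family apart from other loci.

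The kept members had a median of −0.83, and all kept loci had a median of −0.27. Of the kept members, 3 had a higher value in cold, against 38.8% of all kept loci, and 5 had a lower one, against 61.2%. Among all kept loci, 3.29% had a larger fold change than LOC_Os02g41670 and 6.40% a larger one than LOC_Os02g41650. At the other end, 3.17% had a fold change as low as that of LOC_Os12g33610 or lower. LOC_Os02g41670 passed the floor only through its cold value, so its place among all loci is a description of that filter as well.

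The columns can be put on other scales, and this changed the count of lower members, between 1 and 4, but not that of higher members, which was 2 under each of the 3 scalings tried. Median-of-ratios scaling, which sets the typical ratio between the columns to 1 over loci detected in both, moved the median of all kept loci by 0.30. Under it 2 members were at least 2-fold higher, where 18.1% of all loci were, and 1 was at least 2-fold lower, where 11% were. The lower member was LOC_Os12g33610 at −1.49, while LOC_Os04g43800 stood at −0.99 and LOC_Os04g43760 at −0.72. LOC_Os02g41630, at −0.34, lay closest to 0. No member changed direction under these scalings. Median-of-ratios scaling raised the fold change of each kept member, so the higher members could not have turned under it. The lower member nearest to 0 as deposited, LOC_Os02g41630, went from −0.69 to −0.34.

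**Figure D2:**
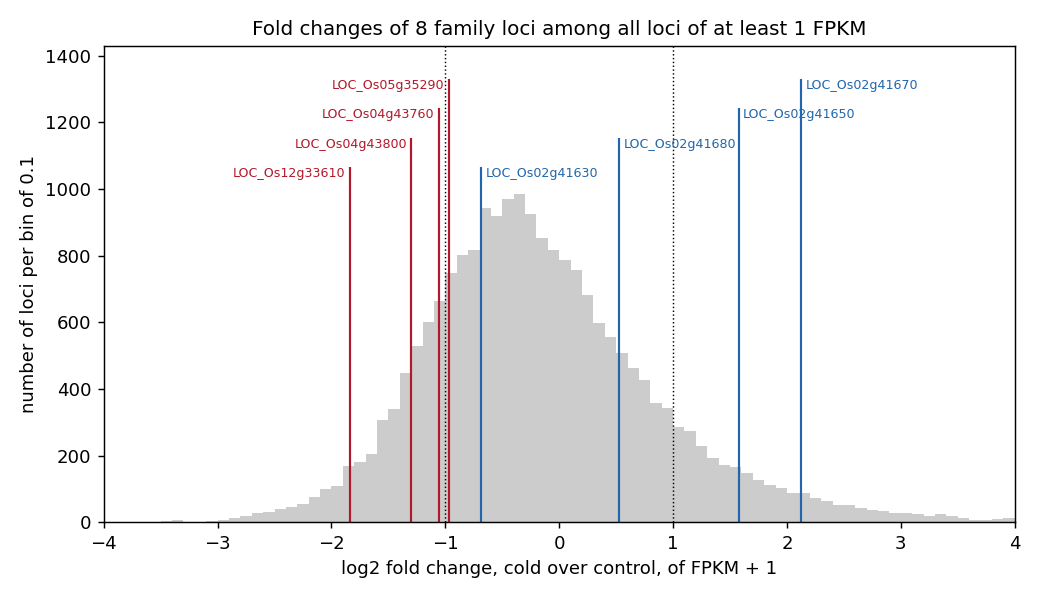
Histogram of the log2 fold change of FPKM + 1, cold over control, for the loci whose mean reached 1 FPKM, in bins of 0.1, with 86 loci beyond the ends of the axis not drawn. Vertical lines mark the 8 kept members, those of chromosome 2 in blue and the others in red, and dotted lines mark 2-fold. The members spread from −1.84 to 2.13.

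Summed over the 9 loci, the family had 1609 FPKM in cold and 2120 FPKM in control, a ratio of 0.759 or −0.40 on the log2 scale, which median-of-ratios scaling brought to −0.052. The sums as deposited are 0.29% of the summed FPKM of all loci in cold and 0.363% in control. The sum mostly follows its largest member. Without LOC_Os02g41630 the other 8 summed to 679 FPKM in cold and 622 FPKM in control, a ratio of 1.09, so the direction of the family sum turns on this locus. The 3 other loci of the chromosome 2 group summed to 526 FPKM in cold and 207 FPKM in control, a ratio of 2.54. The 5 loci outside the group summed to 153 FPKM in cold and 415 FPKM in control, 2.71-fold lower.

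The composition of the family therefore differed between the columns, and shares within a column do not depend on a factor that scales the whole column. The chromosome 2 group made up 90.5% of the family sum in cold and 80.4% in control. Of the family sum, LOC_Os02g41630 held 57.8% in cold and 70.6% in control, and LOC_Os02g41650 held 26.5% in cold and 6.70% in control. How any reads shared within the group were counted is unknown, and it would bear on these shares. LOC_Os12g33610 held 3.80% in cold and 10.4% in control. The effective number of members, the inverse of the summed squared shares, was 2.44 in cold and 1.92 in control, so the sum was spread over slightly more loci in cold.

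**Figure D3:**
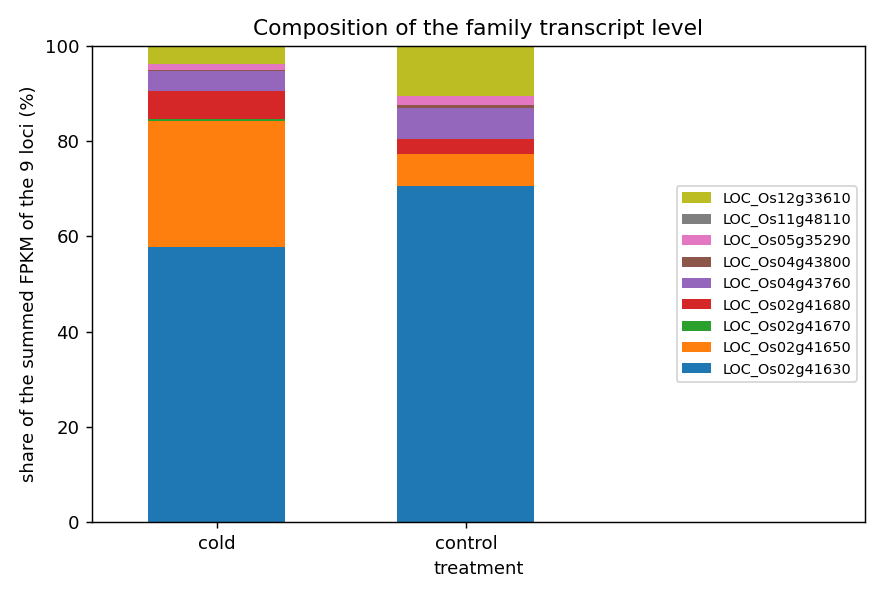
Share of each locus in the summed FPKM of the family, in percent, with cold on the left and control on the right. The segment of LOC_Os02g41650 takes 26.5% of the cold bar and 6.70% of the control bar, and that of LOC_Os12g33610 takes 3.80% of the cold bar and 10.4% of the control bar.

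Ratios between members showed the same shift. LOC_Os02g41630 was 2.18 times as abundant as LOC_Os02g41650 in cold and 10.5 times in control. The ratio of these members of the tandem group thus differed 4.83-fold between the treatments, with the handling of shared reads unknown. LOC_Os02g41650 was 6.96 times as abundant as LOC_Os12g33610 in cold and 0.643 times in control. The ratio that changed least among all 28 pairs of kept members was that of LOC_Os04g43760 to LOC_Os05g35290, at 3.29 in cold and 3.44 in control. Large and small changes occurred both inside the tandem group and between chromosomes. Inside the group, the ratio of LOC_Os02g41630 to LOC_Os02g41670, with its control value below 1 FPKM, changed 12.8-fold. That of LOC_Os02g41650 to LOC_Os02g41680 changed 2.07-fold. Between chromosomes, the ratio of LOC_Os02g41650 to LOC_Os12g33610 changed 10.8-fold, and that of LOC_Os04g43760 to LOC_Os05g35290 changed 1.04-fold.

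Among the 28 pairs of kept members, 23 had the same order of levels in both treatments and 5 swapped it. Swaps among other loci were not counted, and pairs that share a member are not independent. LOC_Os12g33610 was in 3 of the swapped pairs, standing below LOC_Os02g41650, LOC_Os02g41680 and LOC_Os04g43760 in cold and above each of them in control. The others were LOC_Os02g41680 with LOC_Os04g43760 and LOC_Os02g41670 with LOC_Os04g43800, in which the chromosome 2 locus was the higher one in cold and the lower one in control. With 1 value per treatment, which neighbours in these orders differ beyond replicate spread cannot be said. In control LOC_Os02g41650 and LOC_Os04g43760 were 1.02-fold apart.

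Levels of the loci listed next to the members were also read. In the order of identifiers, LOC_Os02g41640 is the only other locus inside the chromosome 2 group. It was listed at 0.08 FPKM in cold and at 0 in control, so high members stand on both sides of a locus near 0. Of the 5 loci listed before and the 5 after the group, 5 were at 0 in both columns and 3 had a mean of at least 1 FPKM. Of these 3, LOC_Os02g41590 was 2.90-fold lower in cold, at 74.6 FPKM in cold and 216 FPKM in control, and none was at least 2-fold higher. Among all kept loci, 19.2% were at least 2-fold lower and 12.5% at least 2-fold higher on the log2(FPKM + 1) scale.

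Between the chromosome 4 members lie 3 listed loci. LOC_Os04g43770 had 4.05 FPKM in cold and 17.6 FPKM in control, 4.34-fold lower, a lower level in cold as for the members on either side. LOC_Os04g43780 and LOC_Os04g43790 were listed at 0 in both columns. Of the 10 loci around this pair, 4 had a mean of at least 1 FPKM. On the log2(FPKM + 1) scale 2 of these 4 were at least 2-fold lower in cold, where 19.2% of all kept loci were. LOC_Os04g43820, also among the 4, was nearly level, at 18.2 FPKM in cold and 17.8 FPKM in control. Whether reads were shared between adjacent loci was not tested.

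**Figure D4:**
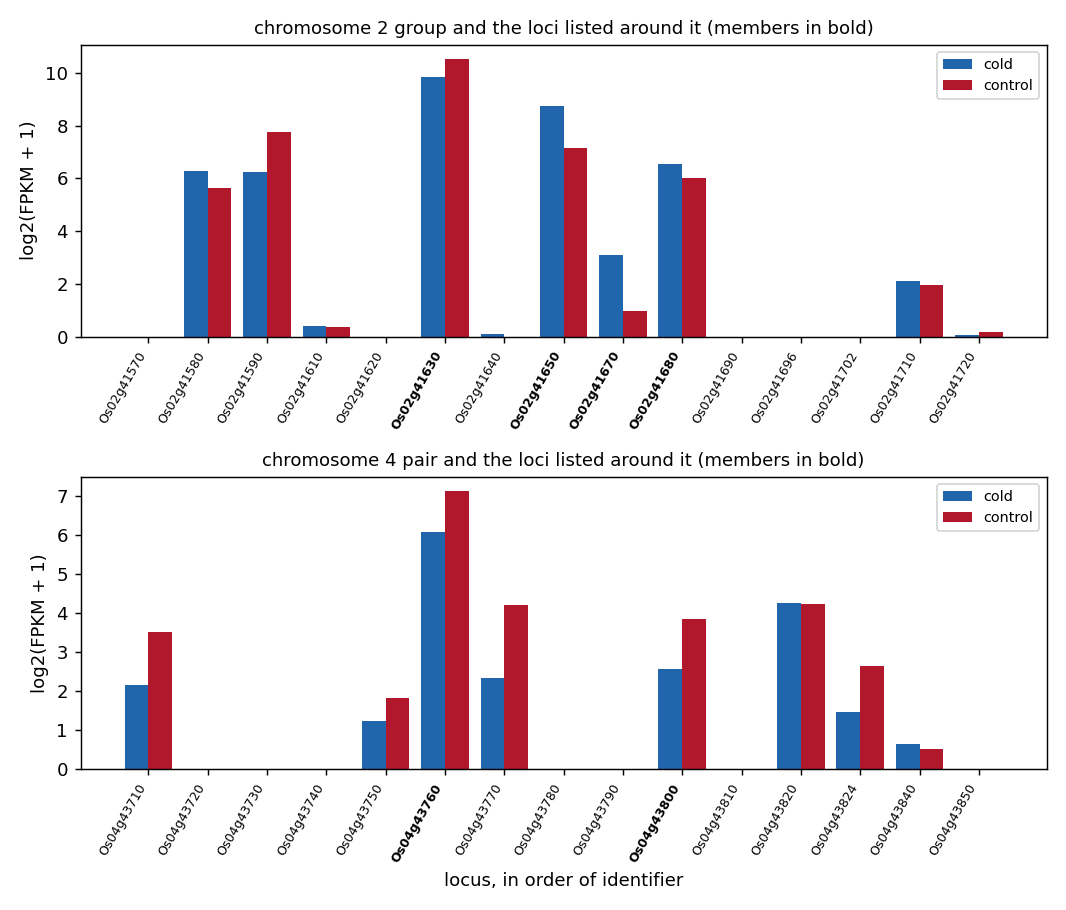
Level as log2(FPKM + 1) of the loci of the chromosome 2 group and of the chromosome 4 pair with the 5 loci listed before and after each, in the order of identifiers, with cold as the left bar and control as the right bar. Members are in bold. LOC_Os02g41640, between LOC_Os02g41630 and LOC_Os02g41650, is near 0 in both treatments, and LOC_Os04g43770 between the chromosome 4 members is lower in cold as they are.

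The loci closest to LOC_Os02g41630 in level, by the distance between their 2 values of log2(FPKM + 1), were LOC_Os02g10390, LOC_Os04g38600 and LOC_Os04g33830, at distances of 0.18, 0.28 and 0.48. LOC_Os02g10390 had 882 FPKM in cold and 1342 FPKM in control. Over 2 values such likeness says only that level and fold were similar.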

How the data were processed

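Leaf RNA of cold and control rice seedlings was enriched for messenger RNA with oligo(dT) beads and sequenced, per the labels' protocols. The authors deposited FPKM values in 1 column per treatment. The libraries behind a column, the genome build, the annotation and the use of strand were not given in the sources used here. HISAT2 2.1.0 and featureCounts 1.6.4 are among the tools listed, with no role, per the submitters' processing notes. FPKM divides by the total, so a few abundant loci can shift a whole column.

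The members and lists were chosen with earlier results of these data known. A limma test was planned only for a table with 1 column per library, so none was run. Fold changes used a pseudocount of 1 and a floor of a mean of 1 FPKM, which kept 20876 of 55801 loci. All members were named, with the loci between them and the 3 closest in level to the member highest in cold. A RefSeq gene table (assembly ASM3414082v1, 39387 genes) held 0 of the 9 identifiers, so no sequences, coordinates or other phenylpropanoid genes are given. Alternatives were pseudocounts of 0.1, 5 and none, other floors, quantile normalization, median-of-ratios scaling and equal column sums (TPM). The script was tested on simulated data. Computation used Python 3.11.15 with scipy 1.17.1, pandas 2.3.3 and numpy 2.4.6, and drawing used matplotlib 3.10.9. The other 27 libraries were not used here.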

Additional observations from a re-analysis of the deposited data

How the results depend on the processing

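Of 48 recomputed member fold changes, 45 stayed within 0.5 (log2) of the value reported, 3 moved and 0 changed direction. The 3 were of LOC_Os02g41670 (2.13), at 2.86 with a pseudocount of 0.1, 2.99 with none and 1.07 with 5. A change of pseudocount cannot turn a direction, so only the scalings could have done so. Median-of-ratios scaling moved the median of all kept loci by 0.30 and raised each member fold change. It could thus have turned only the lower members. Of these, LOC_Os02g41630 was nearest to 0, at −0.69 as deposited and −0.34 under this scaling. The count of lower members (3) was 4 with a pseudocount of 0.1 or none and under quantile normalization, 2 with a pseudocount of 5 or rescaling to the same sum, and 1 with median-of-ratios scaling. A mean of at least 5 FPKM left 1 higher member, since LOC_Os02g41670 is under it. The log2 ratio of the family sum (−0.40) was −0.052 with median-of-ratios scaling and −0.20 with quantile normalization. It reversed to 0.13 without LOC_Os02g41630, picked by rule as the most abundant member. Each other member was also left out in turn, which was added after seeing the data. The log2 ratio was then −0.74 without LOC_Os02g41650 and −0.30 without LOC_Os12g33610. It stayed within 0.1 of −0.40 when any other single member was left out. No paired analysis was possible because the table does not separate the libraries of a treatment, and for that reason no replicate could be left out. Without the depth, no counting error can be given for a locus.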
